A study of Mus musculus with 13 samples.

Results

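Sox9 peaks were examined around 7 genes that pattern the face and jaws: Dlx1, Dlx2, Dlx5, Dlx6, Msx1, Alx4 and Pax9. The members were all peaks whose centre lay in 5 windows on the mouse genome build mm9: chr6:6700000-6950000 for Dlx5 and Dlx6, chr2:71300000-71450000 for Dlx1 and Dlx2, chr5:38100000-38320000 for Msx1, chr2:93380000-93600000 for Alx4 and chr12:57680000-57900000 for Pax9. The windows are named after the genes, and whether each gene lies within its window on mm9 was not checked, as no annotation of that build was used here. Together the windows covered 1060 kb and held 22 of the 45096 peaks deposited for rib and nasal cartilage, 9 of 27656 in rib and 13 of 17440 in nasal septum. The rib peaks came from chondrocytes of wild-type, untreated ICR mice at postnatal day 1, and the nasal peaks from nasal septum chondrocytes of the same strain at embryonic day 17.5. Both cell preparations were released by enzyme digestion, and both immunoprecipitations used the same Sox9 antibody. The series holds 13 libraries, of which these 2 gave the peak lists, with 1 Sox9 library per tissue. There was thus no replicate check, tissue and stage cannot be told apart, and every interval and test below compares 2 lists of peaks and covers counting error alone.

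Sox9 is the HMG-box transcription factor that chondrocytes require to form and to make cartilage matrix. Dlx, Msx and Alx proteins carry a homeodomain, a DNA-binding fold shared by many factors that set positional identity in the embryo. Pax9 is usually grouped with them by its role, but it binds DNA through a paired domain and has no homeodomain. The cartilage of the nasal septum derives from cranial neural crest, in which these genes are known to act, whereas rib cartilage derives from the somites. The lists give positions without height or significance, so how deep the reads were and how strong each peak was are unknown. Chondrocyte markers were not placed on mm9 here. Place in the list is given below as a percentage of the list's length, an order whose meaning the sources do not state.

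The promoters of 4 of the 7 genes, Dlx1, Dlx2, Msx1 and Pax9, were matched in the RefSeq table of GRCm38.p6, which spans 250 bases before to 50 after each gene's start. They were searched on both strands for the SOX core letters ACAAT and ACAAAG. The promoters of Dlx2 and Pax9 each held 1 match, to ACAAT, and are shown with it in capitals, 5′ to 3′ on the strand of the gene (Dlx2 at chr2:71546705-71547004, minus strand, and Pax9 at chr12:56695221-56695520, plus strand, both GRCm38.p6).
Dlx2: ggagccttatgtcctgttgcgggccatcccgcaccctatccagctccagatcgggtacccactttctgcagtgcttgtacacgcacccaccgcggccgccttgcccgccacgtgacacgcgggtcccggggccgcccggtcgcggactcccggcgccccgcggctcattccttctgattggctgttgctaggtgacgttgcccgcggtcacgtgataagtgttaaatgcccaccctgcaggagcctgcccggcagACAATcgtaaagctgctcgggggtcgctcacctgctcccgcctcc
Pax9: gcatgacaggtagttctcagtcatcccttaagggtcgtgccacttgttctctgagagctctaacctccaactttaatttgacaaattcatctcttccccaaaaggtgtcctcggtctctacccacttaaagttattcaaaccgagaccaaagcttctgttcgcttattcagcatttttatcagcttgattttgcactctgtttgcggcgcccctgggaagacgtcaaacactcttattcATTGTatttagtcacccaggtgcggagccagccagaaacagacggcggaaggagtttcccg
In Pax9 the capitals are the reverse complement of the motif. The Dlx1 and Msx1 promoters held neither motif. Of 32851 promoters in the table, 31% held ACAAT, 18.7% held ACAAAG and 42.9% held at least 1 of the motifs. The GC content was 69.3% for Dlx1, 66.3% for Dlx2, 70.0% for Msx1 and 47.0% for Pax9, against a median of 52.7% over all promoters. These promoters are on another build than the peaks, so no peak was placed against them.

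The windows held 9 rib and 13 nasal Sox9 peaks, and each window held at least 1 site found in both tissues. How many of all windows hold such a site was not counted. A nasal peak shared at least 1 bp with 8 of the 9 rib peaks, or 88.9% (95% exact binomial interval 51.8% to 99.7%), whereas nasal peaks overlapped 42.8% of all rib peaks. In the other direction a rib peak overlapped 8 of the 13 nasal peaks, or 61.5% (31.6% to 86.1%), beside 68.2% of all nasal peaks. A single rib peak, in the Alx4 window, lacked a nasal counterpart. The 5 nasal peaks without a rib counterpart lay in the Msx1, Dlx1/Dlx2 and Alx4 windows. Peaks of a window are not independent of each other, but the intervals treat them as independent. Under a stricter criterion, in which the overlap covered at least 50% of each peak, 5 of 9 rib peaks had a counterpart, or 55.6%, beside 28.4% of the list, and 5 of 13 nasal peaks, or 38.5%, beside 45.1%. Within the first 50% of each list, 3 of 7 rib peaks were overlapped, or 42.9%, beside 38.5% over all peaks of the shortened lists. The rest of these 7 had nasal counterparts at 50.1% to 58.1% of the nasal list, past that cut. With windows widened by 50 kb on each side, 13 of 18 rib peaks were overlapped, or 72.2%, and 12 of 21 nasal peaks, or 57.1%. In the 250 kb to each side of the windows, 21 of 42 rib peaks were overlapped, or 50%, and 19 of 29 nasal peaks, or 65.5%.

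**Figure D1:**
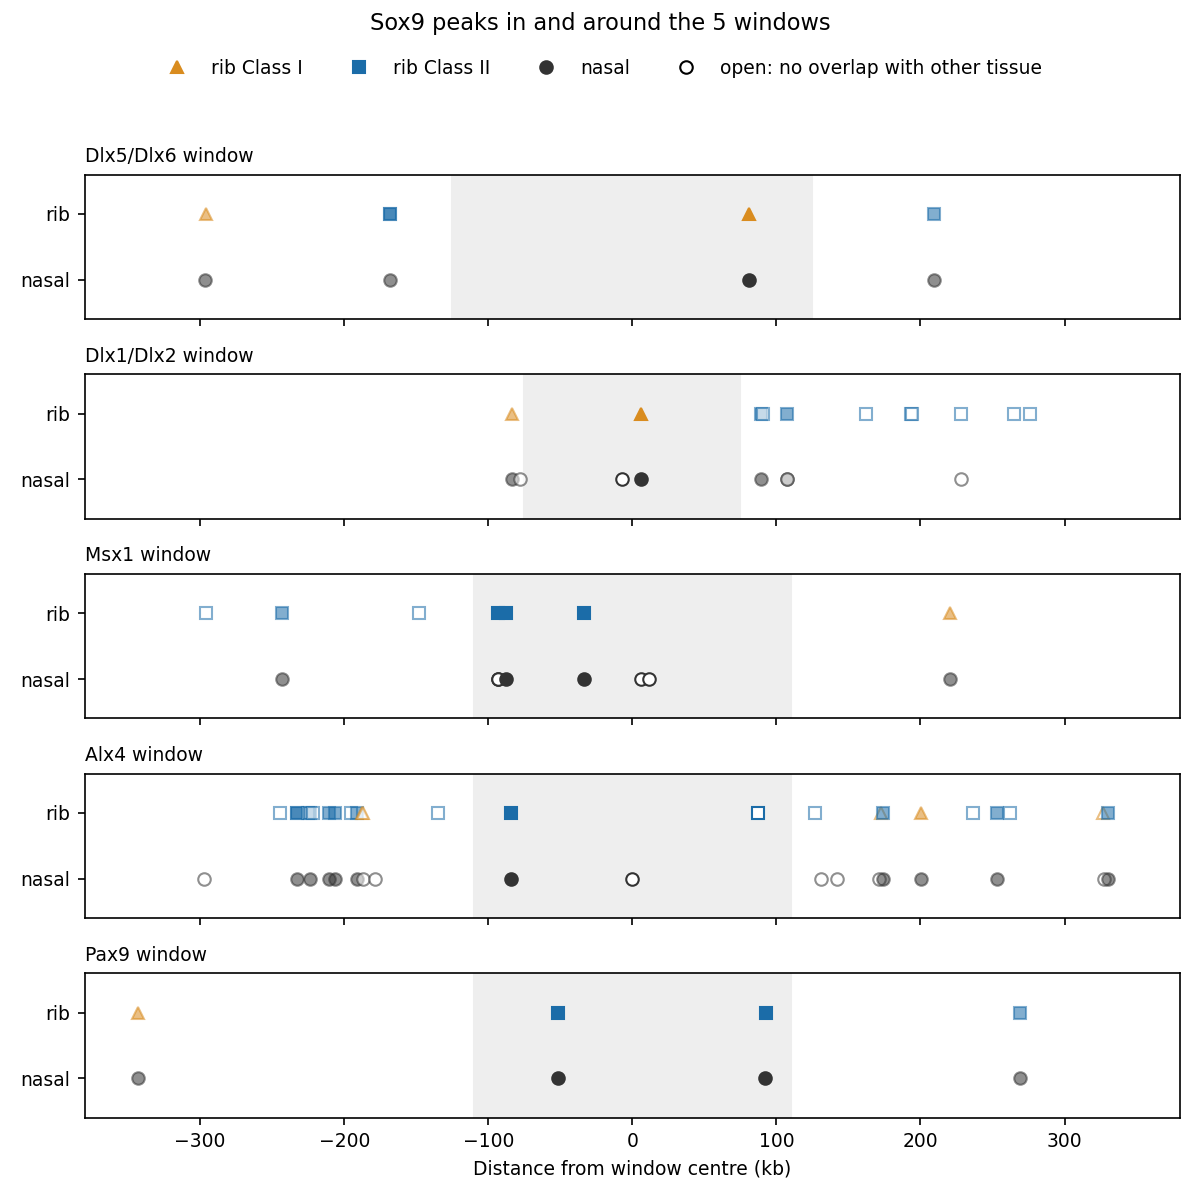
Each panel plots Sox9 peak centres by their distance from the window centre in kb, with the window shaded, rib peaks above (triangles for Class I, squares for Class II) and nasal peaks below (circles). Open symbols have no overlapping peak in the other tissue, and paler symbols lie in the 250 kb on each side of the window. A rib and a nasal peak coincide at least once in every window, and the open symbols within the shading are 5 nasal peaks and 1 rib peak.

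The Dlx5/Dlx6 window held 1 rib and 1 nasal peak, and they coincided. Dlx5 and Dlx6 lie next to each other and act together in giving the lower jaw its identity. The rib peak at chr6:6905748-6905946 was 199 bp wide and stood at 31.9% of the rib list, and the nasal peak at chr6:6905860-6905975 was 116 bp wide and stood at 21.2% of the nasal list. They shared 87 bp. The next rib peak lay 129 kb away. In the gene order of GRCm38.p6 the protein-coding neighbour on the side of Dlx5 is Sdhaf3, an assembly factor of succinate dehydrogenase, and which gene the peak lies nearest on mm9 was not determined.

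The Dlx1/Dlx2 window held 1 site shared by both tissues and 1 site of the nasal list alone. Dlx1 and Dlx2 form another linked gene pair of the family, known for roles in the upper jaw and in forebrain interneurons. The shared site was the rib peak at chr2:71380701-71380963, 263 bp wide and at 17.5% of its list, with a nasal peak at chr2:71380735-71380964 that stood at 12.3% of its list and shared 229 bp with it. The nasal peak without a rib counterpart, at chr2:71367758-71367920, was 163 bp wide, stood late, at 88.0% of the nasal list, and lay 12.8 kb from the nearest rib peak. Beyond the window, the 250 kb on the higher side held 9 rib peaks, all Class II, of which nasal peaks overlapped 2, and 4 nasal peaks.

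The Msx1 window held the most peaks of the 5, with 3 in rib and 6 in nasal septum. Msx1 is a homeodomain repressor needed for teeth and palate. Its window also had the earliest listed peaks of both lists among the members, at a single site: the rib peak at chr5:38122149-38122312 stood at place 413 (1.49% of the list) and the nasal peak at chr5:38122117-38122317 at place 277 (1.59%). All 164 bp of that rib peak lay within the nasal peak.

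Another site of the Msx1 window, 5.49 kb away on the lower side, was divided differently in the 2 lists. The rib list had 1 peak there, chr5:38116454-38116657, at 7.48% of the list. The nasal list had 2, chr5:38116425-38116478, which was 54 bp wide, shared 25 bp with the rib peak and stood at 58.1%, and chr5:38116842-38117019, which stood at 22.1% and missed the rib peak by 184 bp. With peaks up to 1 kb apart counted as shared, 9 of the 13 nasal peaks in the windows had a rib counterpart, or 69.2%, beside 78.1% over the list. Together with the earliest listed site, these peaks formed the chain with the most nasal peaks in the 5 windows at a spacing of at most 10 kb, 3 over 5.89 kb, and the only chain of rib peaks, 2 over 5.86 kb.

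The last shared site of the Msx1 window lay near the middle of both lists. The rib peak at chr5:38176194-38176410 stood at 46.5% and the nasal peak at chr5:38176223-38176405 at 50.1%, and they shared 183 bp. The remaining peaks were nasal alone, at chr5:38215727-38215820 and chr5:38221835-38221930. They were narrow, at 94 and 96 bp, and stood near the end of the nasal list, at places 16441 and 16438 of 17440. The nearest rib peak was 39.3 kb from the first and 45.4 kb from the second. In GRCm38.p6 the neighbours of Msx1 are Cytl1, which encodes a secreted protein made by chondrocytes, and Stx18, which encodes a syntaxin, and which of these genes each peak lies nearest was not determined.

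The Alx4 window held 2 rib and 2 nasal peaks, with 1 site in common. Alx4 encodes a paired-type homeodomain protein of the frontonasal and limb mesenchyme. The rib peak at chr2:93406002-93406092, 91 bp wide, lay wholly within the nasal peak at chr2:93405966-93406127, and their centres were 0.5 bp apart. It stood at 87.8% of the rib list, where 12.1% of the 1870 Class II peaks in the same bin (1 of 10 equal bins of the list by place) were overlapped, while the nasal peak stood at 59.2%. The other rib peak, chr2:93577251-93577453, stood at 90.6% and lay 43.4 kb from any nasal peak. The other nasal peak, chr2:93489558-93489636, stood at 76.2% and lay 83.5 kb from any rib peak. The 250 kb on each side of this window together held 22 rib and 16 nasal peaks. In GRCm38.p6 the neighbours of Alx4 are Cd82, a tetraspanin gene, and Ext2, which encodes a subunit of the heparan sulfate polymerase.

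In the Pax9 window, both rib peaks had a nasal counterpart and the reverse. Pax9 acts in teeth, palate and the sclerotome, the part of the somite that forms vertebrae and ribs. The rib peak at chr12:57738407-57738515 stood early, at 8.03% of its list, and lay wholly within the nasal peak at chr12:57738386-57738569, which stood at 51.1%. The rib peak at chr12:57882345-57882664, the widest of the members at 320 bp, stood at 42.0% and held all 149 bp of the nasal peak at chr12:57882369-57882517, which stood at 56.5%. The sites were 144 kb apart, with no other peak of either list between them. The neighbours of Pax9 in GRCm38.p6 are Nkx2-9, a homeobox gene, and Slc25a21, a mitochondrial carrier gene.

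Over the 8 overlapping pairs, centres lay 0.5 to 104 bp apart, with a median of 17 bp, and the median over all 12040 overlapping pairs of the lists was 36 bp. The pairs shared a median of 129 bp, against 133 bp over all pairs. Of the 8 pairs, 5 stood relatively earlier in the rib list and 3 in the nasal list, and over all pairs 56% stood earlier in the rib list. The widest differences in place were at the divided site of the Msx1 window and at the first site of the Pax9 window. Both stood early in rib and past the middle in nasal. The Dlx sites and the Alx4 site stood earlier in the nasal list.

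**Figure D2:**
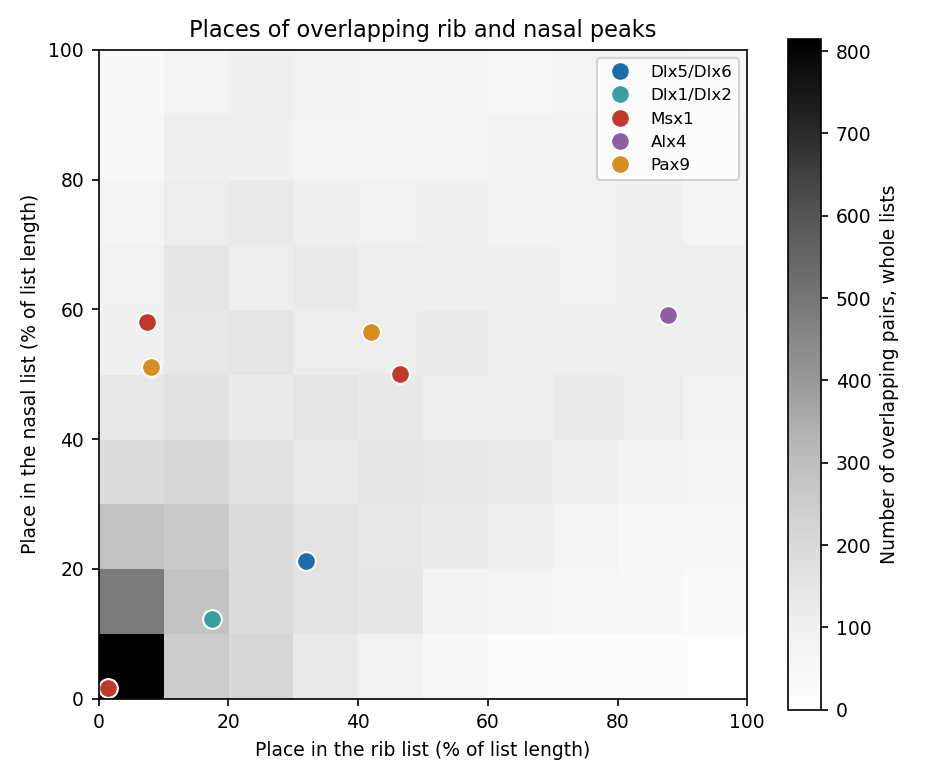
Each coloured point is an overlapping rib and nasal peak pair of the 5 windows, plotted by its place in the rib list (x axis) and in the nasal list (y axis), both as % of list length, over the number of pairs of the whole lists in each square of 10 by 10 bins (grey scale). The earliest pair, at 1.49% and 1.59%, lies in the Msx1 window, and the Alx4 pair stands at 87.8% and 59.2%.

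Nasal peaks outnumbered rib peaks over the 5 windows, although no window passed a test. They made up 13 of 22 peaks, or 59.1% (95% exact binomial interval 36.4% to 79.3%), whereas they made up 38.7% of both whole lists. The counts were 1 rib and 1 nasal for Dlx5/Dlx6, 1 and 2 for Dlx1/Dlx2, 3 and 6 for Msx1, and 2 and 2 for both Alx4 and Pax9. More nasal than rib peaks thus occurred in 2 of the 5 windows, and in 15.2% of the 7404 windows with a peak, which were the 5 windows and genome tiles of 200 kb outside them. Within the first 50% of each list, nasal peaks made up 4 of 11, or 36.4%, which was not above their share of the lists. Without the Msx1 window the share was 7 of 13, or 53.8%. With peaks within 1 kb merged it was 12 of 21, or 57.1%, beside 38.3% of the merged lists. In the 250 kb to each side of the windows, 29 of 71 peaks were nasal, or 40.8% (29.3% to 53.2%).

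Each window was tested for its rib and nasal counts against the rest of both lists with a two-sided Fisher exact test, adjusted by Benjamini-Hochberg over all 7404 windows. None passed at an adjusted p of 0.05, which is 0% of the windows, and 31 had an unadjusted p below that value. For Msx1 the Fisher exact p was 0.0975 and the adjusted p 1.0, and the other 4 windows had exact p-values from 0.564 to 1.0. A window would have needed 13 nasal peaks without a rib peak, or 26 rib peaks without a nasal peak, to pass alone, so none of the 5 windows, which held 2 to 9 peaks each, could pass. Of the 260 windows that held 9 peaks in all, 10 had at least 6 nasal peaks, or 3.85%, and these 10 include the Msx1 window. The count of 6 was chosen after the Msx1 values were seen. With peaks within 1 kb merged, the Msx1 window held 5 nasal peaks among 8, or 62.5%.

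**Figure D3:**
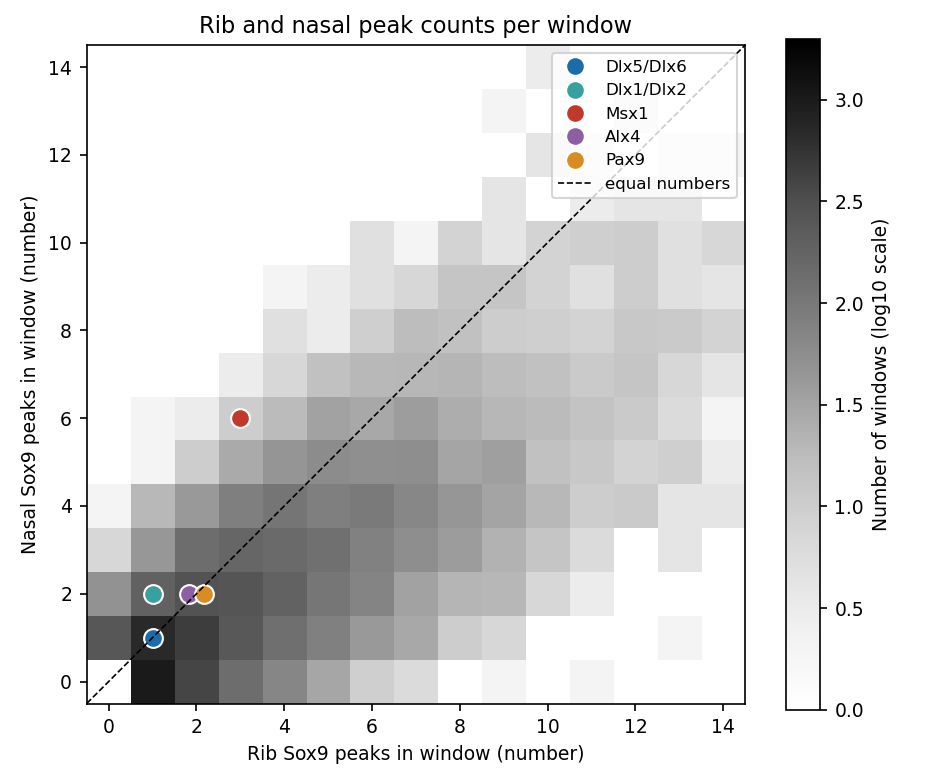
Rib (x axis) and nasal (y axis) peak numbers per window are plotted, with the number of the 7404 windows at each combination in grey on a log10 scale and the 5 windows as coloured points. The 110 windows with more than 14 peaks of either list are not drawn, and Alx4 and Pax9, both at 2 and 2, are set slightly apart. Msx1 and Dlx1/Dlx2 lie above the dashed line of equal numbers, and the other 3 windows lie on it.

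By density, the Msx1 window ranked highest. Rib peaks stood at 13.6 per Mb in it, a density that 29.1% of the 13180 tiles of 200 kb reached. Nasal peaks stood at 27.3 per Mb, which 5.77% of the tiles reached. A tile, being shorter than this window, had to hold as many peaks as the window to reach these densities. The Dlx5/Dlx6 window was the sparsest, with 4.0 peaks per Mb of each list, reached by 53.8% of tiles in rib and 43.8% in nasal. Any tile with a peak reached that density, as tiles are shorter than that window. The Alx4 and Pax9 windows each held 9.09 peaks per Mb of either list. Over the 5 windows the density was 8.49 rib and 12.3 nasal peaks per Mb. Over all chromosomes, each counted up to its last peak, it was 10.5 and 6.62. The rib peaks stood apart from each other: 2 of the 9 had another rib peak within 10 kb, against 52.9% of all rib peaks, and the median gap to the next was 53.9 kb against 8.68 kb. Among nasal peaks, 5 of 13 had such a neighbour, all in the Msx1 window, against 44.9% of the list.

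Rib peaks in the Dlx windows belonged to Class I, and those in the Msx1, Alx4 and Pax9 windows to Class II. The submitters divided the rib list into Class I and Class II, by a definition that the sources do not state. Each Dlx window held 1 rib peak, and the other windows held 7. With the windows widened by 50 kb on each side, Class I made up 1 of 3 rib peaks for Dlx5/Dlx6, or 33.3%, 2 of 5 for Dlx1/Dlx2, or 40%, and none of the 4, 4 and 2 for Msx1, Alx4 and Pax9. With the windows as given, 2 of 9 were Class I, or 22.2% (2.81% to 60.0%), near the 24.6% of the whole list. Of 7096 windows with a rib peak, 11.4% held Class I peaks alone, and 25.2% of the windows with a single rib peak did. Class II alone was found in 52.1% of windows, in 59.8% of those with 2 rib peaks and in 48.4% of those with 3. None of the 5 windows passed the Fisher exact test of Class I against Class II, with adjusted p of 0.941 for both Dlx windows and 1.0 for the others, where 53 of the 7096 windows, or 0.747%, passed. As the only window to pass, a window would have needed 9 Class I peaks without Class II, or 45 Class II peaks without Class I. With 53 windows passing, fewer peaks would have sufficed, a number that was not computed.

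Most rib peaks of either class in these windows had a nasal counterpart. Both Class I peaks had one, as did 6 of the 7 Class II peaks, or 85.7% (42.1% to 99.6%), whereas over the whole list 68.8% of Class I and 34.4% of Class II had one. Of the 6, 3 stood in bin 1 of 10 of the rib list, where 81.1% of the 2544 Class II peaks were overlapped. Another 2, in the Msx1 and Pax9 windows, stood in bin 5, where the share was 27.6%, and the last was the late Alx4 peak. The Class I peaks stood in bins 2 (Dlx1/Dlx2) and 4 (Dlx5/Dlx6), where 90.3% of 402 and 80.2% of 615 Class I peaks were overlapped.

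Shared and unshared nasal peaks of the windows stood at different places in their list. The 8 shared ones stood between 1.59% and 59.2% of the list, with a median of 50.6%. The 5 others stood between 22.1% and 94.3%, with a median of 88.0%, and 4 of them stood past 75%. The earliest of the 5 was the peak 184 bp from a rib peak in the Msx1 window. Over the whole nasal list, the medians were 40.0% for shared and 69.4% for unshared peaks, and 42.1% of the unshared ones stood past 75%. The unshared rib peak, at 90.6%, also stood later than each of the 8 shared rib peaks, whose median was 24.7%.

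**Figure D4:**
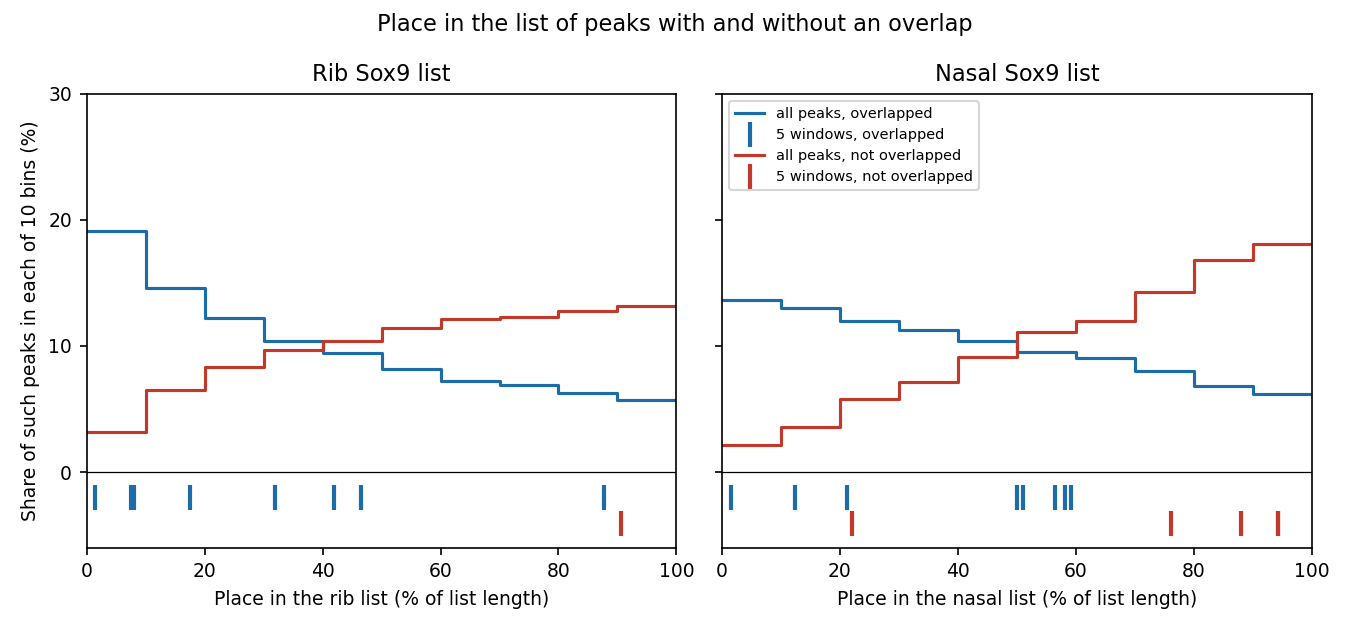
Lines give the share of all overlapped (blue) and not overlapped (red) peaks in each of 10 bins of the rib list (left) and the nasal list (right), in %, against place in the list in % of its length. Ticks under the axis mark the peaks of the 5 windows in the same colours, and 4 of the 5 red ticks of the nasal list lie past 75%, the last being 2 peaks at 94.3%.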

How the data were processed

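The authors deposited 4 lists of Sox9 ChIP-seq peaks (rib, its Class I and Class II parts, and nasal) as chromosome, start and end. Positions are on mm9, as the submitters' processing notes state. Not given in the sources used here are aligner, peak caller, control and class definition. Starts were read with 1 added. Per the labels' protocols, 20000000 cells and 9 μg of antibody went into an immunoprecipitation, and libraries had 18 PCR cycles.

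Peaks were assigned to windows and tiles by their centres, and a tile cut by a window kept its remainder. Overlap meant at least 1 bp, and intervals are Clopper-Pearson at 95%. The members, lists and tests were chosen with earlier results of these data known. Named were all peaks of the windows. Peak sequences, distances to genes and other genes of the pathway need an mm9 genome or annotation and were not analysed here. GRCm38.p6 gave names, gene order and promoters. The other 11 libraries were not analysed here. The routines were tested on simulated data whose planted windows held far more peaks than the windows studied here, so not at these counts. Fisher tests used scipy 1.17.1, adjustment statsmodels 0.14.6, figures matplotlib 3.10.9, and tables pandas 2.3.3 in Python 3.11.15 with numpy 2.4.6.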

Additional observations from a re-analysis of the deposited data

How the results depend on the processing

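The 5 windows were tested 69 times under other tiles, bounds or lists, and their smallest adjusted p was 1 for rib against nasal and 0.8 for the classes (Fisher exact test, Benjamini-Hochberg). With so few peaks the rib against nasal tests could not pass. For the class tests, the number of peaks needed in these settings was not computed. The tests thus say nothing about stability. The share of rib peaks overlapped became 100% with windows narrowed by 25 kb (5 of 5) and without the Alx4 window (7 of 7), beside 42.8% of all rib peaks. With the rib list shortened to the nasal length it was 7 of 7, or 100%, beside 51.9% over the shortened list. With windows widened by 50 kb it was 13 of 18, or 72.2%. Within the first 50% of each list it was 3 of 7, or 42.9%, beside 38.5%. In that last setting the nasal share of the Pax9 window became 0%. The nasal peaks of that window stood at 51.1% and 56.5% of the nasal list, past the cut. With the rib list shortened, the nasal share of 50% in the Dlx5/Dlx6 and Pax9 windows equalled that of the lists. Between the classes, 8 of 10649 windows passed with tiles of 100 kb and 99 of 3688 with tiles of 500 kb. With peaks within 1 kb merged 13 of 7096 passed, beside 53 of 7096 in the main setting. Apart from what follows from fewer peaks, windows or tiles, the cause was not tested. Leaving out each window in turn, added after the data were seen, gave nasal shares from 53.8% to 61.1%. No paired analysis was possible because each tissue has 1 Sox9 library.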
